A study of Mus musculus with 3 samples.

Results

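Bone marrow-derived dendritic cells given lipopolysaccharide (LPS) together with 8-Br-cAMP were compared with cells given LPS alone. The comparison used 2 of the 3 samples of the series, picked by their labelled treatment, and was described across genes. Of 18193 genes with a probe set on the Affymetrix mouse array, 12572 were measured, meaning that the signal was above a floor of 32.5 on at least 1 of the 2 arrays after each array was scaled to a common mean. In both cultures mouse bone marrow cells had grown for 10 days in GM-CSF at 10 ng/ml. One culture then received LPS at 10 ng/ml for 3 h, and the other received the same LPS with 100 µM 8-Br-cAMP for 3 h. The remaining culture was left unstimulated, and its values are given as a reference level. Its array also entered the common scale, the floor and the choice of the brightest probe set of a gene. No array had 8-Br-cAMP without LPS. The strain, sex and number of mice are not given in the labels used here. Cultures of marrow in GM-CSF are known to hold macrophages and granulocytes beside dendritic cells, and no sort is stated.

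LPS is a component of the bacterial outer membrane that is sensed by Tlr4 and switches on inflammatory cytokine genes in dendritic cells. 8-Br-cAMP enters cells and stands in for cyclic AMP, the second messenger made when hormones, prostaglandin E2 or adenosine act on receptors coupled to the G protein Gs. Cyclic AMP activates protein kinase A, which phosphorylates the transcription factor CREB. CREB binds a short palindrome, the cyclic AMP response element (CRE), in the promoters of genes such as Fos and Crem. In myeloid cells a high cyclic AMP level is known for a low output of Tnf and a high output of Il10.

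Each condition had 1 array, so no difference has a replicate check, and no test or p-value can be given. The scatter available is that between probe sets of one gene on the same arrays: a log2 difference by a single probe set carried an error of 0.48 over 3859 pairs of probe sets. It does not measure the spread between cultures. The array with 8-Br-cAMP was the dimmest before scaling, with a deposited trimmed mean of 63.2 against 111 with LPS, and its hybridisation spikes read 0.496 times those of the LPS array. All signals below are scaled signals, and a signal is compared only with that of the same probe set on another array. Where one of the signals lies under the floor, the fold is given as at least its value against the floor. A difference by another probe set of a gene can also be held small by the floor.

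The culture with 8-Br-cAMP also differed from the LPS culture in sex-linked RNAs and in markers of other cell types. Xist, the RNA that coats the inactive X chromosome of females, read 32.3 unstimulated, 8.08 with LPS and 1716 with LPS plus 8-Br-cAMP, at least 52.7-fold higher than with LPS. Eif2s3y, a Y-linked translation factor, read 352, 272 and 1.24 in the same order. All 4 measured Y-linked genes were above the floor with LPS and under it with the analogue. Uty, the Y-linked homologue of the histone demethylase Kdm6a, was at least 2.40-fold lower (-0.28 by its second probe set), and the summed signal of the list was 492 with LPS and 75.2 with the analogue. The difference did not extend to X-linked genes at large, whose median log2 difference was -0.03 over 375 genes, against 0.05 over 12118 autosomal genes. The treatment and the culture therefore cannot be told apart in any gene.

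All 16 measured neutrophil markers had negative differences, and 10 were at least 2-fold lower, against 5.81% of all measured genes. Their summed signal was 49261 with LPS and 25672 with the analogue, and no measured member was at 0 on either array. Mpo, the myeloperoxidase of primary granules, read 369 unstimulated, 282 with LPS and 50.5 with the analogue. Elane, neutrophil elastase, read 380, 414 and 79.7, so for both enzymes the unstimulated and LPS arrays were close and the third stood apart. S100a8, a calcium-binding protein of neutrophils and monocytes, differed less, by -0.93. Some members outside the naming rule differed by less than the error of 0.48, so their sign is not fixed. Among these were Mmp8 at -0.07, Lcn2 at -0.29 and Mmp9 at -0.47. Eosinophil markers had 3 of 4 lower, such as the granule protein Prg2 at 1189 against 387, and megakaryocyte markers had 3 of 6 lower, such as Itgb3, the integrin beta 3 chain, at 213 against 45.7 (-0.72 by its second probe set). Igha, the heavy chain of IgA, read 903, 881 and 57.0, and Jchain, which joins IgA and IgM chains, read 716, 529 and 23.2. On the B and plasma cell list these were among 3 of 13 measured members at least 2-fold lower, while 0 were higher and 5 had positive differences under 2-fold. In bulk RNA such as this, fewer cells of a type and less RNA per cell cannot be told apart.

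Dendritic cell markers were present on both arrays. All 13 measured macrophage markers were above the floor on both as well, and all 16 measured neutrophil markers were above it with LPS. The presence of a list therefore cannot check the label of the cultures. All 17 dendritic cell markers on the list were measured, 3 were at least 2-fold higher with the analogue, against 6.49% of all measured genes, and 0 were lower. Of the 17, 11 had positive and 6 negative differences. Cd74, the invariant chain of MHC class II, read 8500 unstimulated, 9664 with LPS and 13714 with the analogue, and H2-Aa, a class II chain, read 8332, 10014 and 13876. Of the 3 other probe sets of H2-Aa only 1 had the same sign, and the second brightest differed by -0.26. Cd83, a maturation marker, read 949, 1493 and 4288, and Ccr7, the receptor that guides dendritic cells to lymph nodes, read 1122, 1457 and 4129. The transcription factor Irf4 read 203, 222 and 592, but its second probe set differed by only 0.28. Macrophage markers went both ways, with the mannose receptor Mrc1 higher by 1.01 and the efferocytosis receptor Mertk lower, at 1383 against 442. Over the lists of other cell types and sex together, 32 of 110 measured markers were at least 2-fold lower and 9 higher. A further 698 lower and 807 higher genes stand on none of those lists. Whether the makeup of the culture has a part in their differences was not tested.

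**Figure D1:**
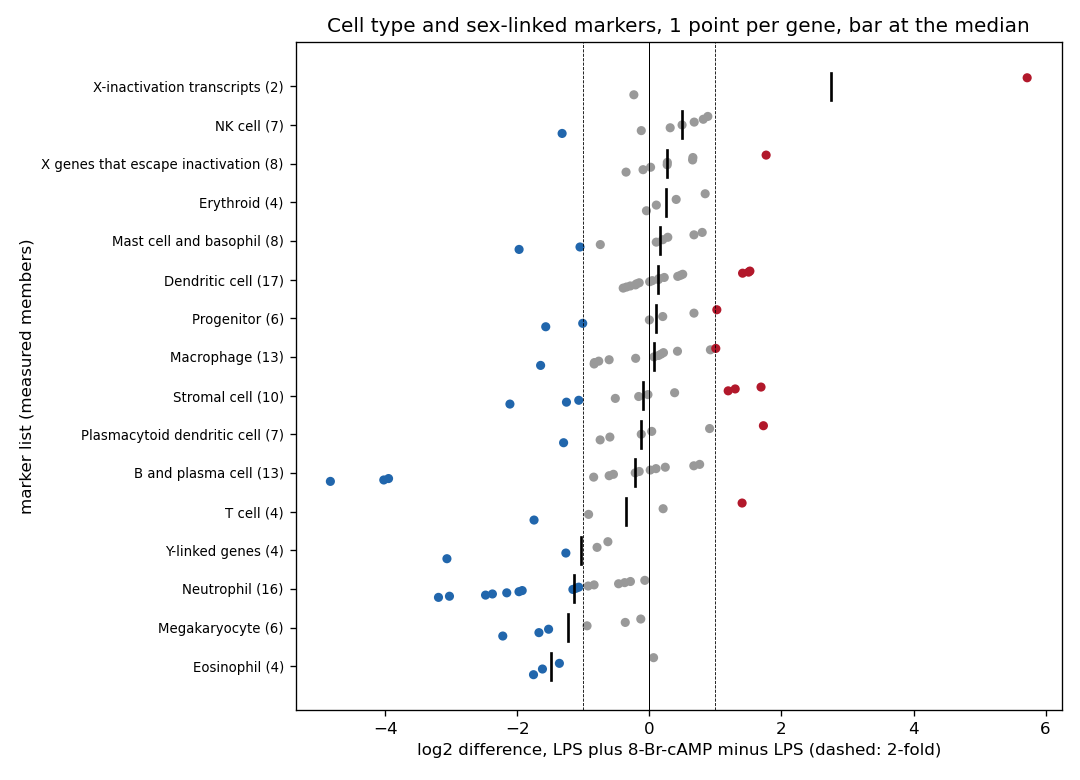
Log2 differences, LPS plus 8-Br-cAMP minus LPS (horizontal axis), of the measured members of each cell type or sex-linked marker list (vertical axis, number of measured members in brackets); each point is a gene, the bar marks the median of the list, and dashed lines mark 2-fold. All 16 neutrophil and all 6 megakaryocyte markers lie left of 0, while the dendritic cell markers centre on 0.14.

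The promoters of the genes with the largest differences that hold a CRE are shown here, because the CRE is the site through which cyclic AMP is known to act on transcription. Each runs from 250 bases before to 50 bases after the annotated start, 5′ to 3′ along the gene, as in RefSeq on the mouse build GRCm38.p6. Capitals mark every match to the CRE, TGACGTCA, and to its core TGACG on either strand, which reads CGTCA on the opposite one. The core is contained in the CRE. Has1 lies at chr17:17855139-17855438 (minus strand), Dusp1 at chr17:26508423-26508722 (minus strand) and Btg2 at chr1:134079106-134079405 (minus strand).
Has1: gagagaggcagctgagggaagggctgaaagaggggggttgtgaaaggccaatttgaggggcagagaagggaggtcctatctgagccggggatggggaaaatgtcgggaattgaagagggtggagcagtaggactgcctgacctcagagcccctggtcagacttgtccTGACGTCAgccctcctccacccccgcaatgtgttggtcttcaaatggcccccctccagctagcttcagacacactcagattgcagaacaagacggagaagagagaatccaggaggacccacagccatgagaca
Dusp1: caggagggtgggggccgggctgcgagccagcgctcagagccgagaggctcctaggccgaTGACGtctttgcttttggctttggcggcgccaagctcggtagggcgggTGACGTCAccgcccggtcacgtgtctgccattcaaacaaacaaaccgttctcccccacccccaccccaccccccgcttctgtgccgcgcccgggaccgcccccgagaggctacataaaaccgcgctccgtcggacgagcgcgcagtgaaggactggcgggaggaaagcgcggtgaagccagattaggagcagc
Btg2: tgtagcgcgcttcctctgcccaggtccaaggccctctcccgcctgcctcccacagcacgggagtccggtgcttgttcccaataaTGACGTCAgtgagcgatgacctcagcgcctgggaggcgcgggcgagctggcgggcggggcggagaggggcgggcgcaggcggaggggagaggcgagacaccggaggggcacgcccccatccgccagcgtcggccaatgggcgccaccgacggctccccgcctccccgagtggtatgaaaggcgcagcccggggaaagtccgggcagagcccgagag

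Fos, at chr12:85473640-85473939 (plus strand), and Nr4a1, at chr15:101266596-101266895 (plus strand), have no full CRE in this window. They are shown for their matches to the core and were chosen after their values were seen.
Fos: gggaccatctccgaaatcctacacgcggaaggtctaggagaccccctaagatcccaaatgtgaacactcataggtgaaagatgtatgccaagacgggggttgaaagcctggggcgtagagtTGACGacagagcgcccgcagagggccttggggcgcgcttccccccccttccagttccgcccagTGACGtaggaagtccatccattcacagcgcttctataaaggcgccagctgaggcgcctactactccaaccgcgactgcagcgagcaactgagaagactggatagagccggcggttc
Nr4a1: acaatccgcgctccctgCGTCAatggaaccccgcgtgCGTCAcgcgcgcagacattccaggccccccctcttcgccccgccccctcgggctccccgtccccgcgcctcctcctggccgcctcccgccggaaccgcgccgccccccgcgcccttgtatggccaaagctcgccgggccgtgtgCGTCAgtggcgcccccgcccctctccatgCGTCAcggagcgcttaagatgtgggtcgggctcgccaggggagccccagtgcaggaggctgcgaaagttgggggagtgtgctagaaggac

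Matches lay at different distances from the start site. The CRE of Has1 began 83 bases upstream of the start, that of Dusp1 143 bases and that of Btg2 166 bases upstream. Dusp1 had another match to the core 191 bases upstream. Fos had matches to the core 129 and 66 bases upstream, and a TATA box, TATAAA, 33 bases upstream. Nr4a1 had 4 matches to the core, all on the strand opposite to the gene, at 233, 213, 69 and 40 bases upstream. Such a match is a description of the sequence and does not show that a factor was bound.

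**Figure D2:**
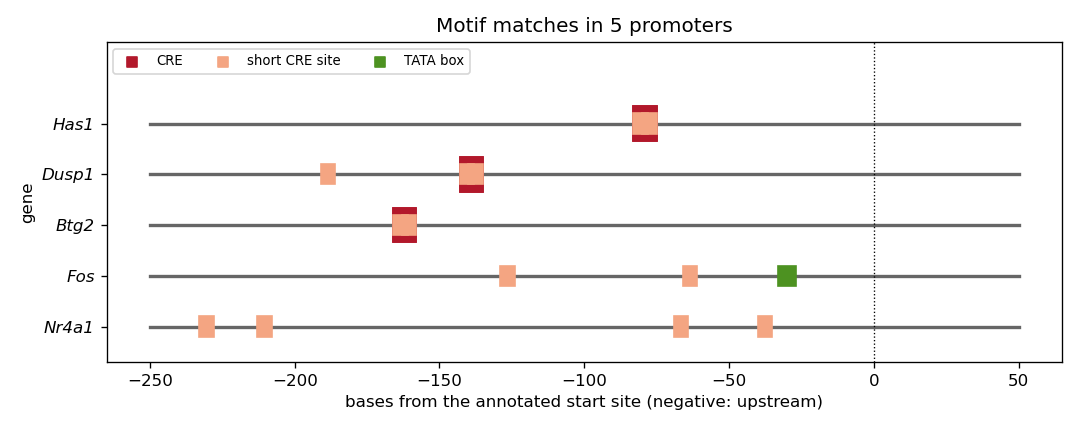
Positions of motif matches in the promoters of Has1, Dusp1, Btg2, Fos and Nr4a1 (vertical axis), in bases from the annotated start site (horizontal axis, upstream negative, dotted line at the start). The full CRE (dark red) is present in the upper 3 genes, 83 to 166 bases upstream; the short CRE site is its 5-base core, which Fos and Nr4a1 hold without the full CRE.

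Over all 32851 promoters in the table, 1.79% held the CRE and 20.8% its core. Among promoters of measured genes the shares were 2.80% and 29.3%. Promoters of genes at least 2-fold higher with the analogue held the CRE in 3.24% and the core in 28.4%, and those of genes at least 2-fold lower in 2.75% and 27.5%. The higher genes as a whole thus had shares near those of all measured genes. Of the 18 measured genes at least 8-fold higher, only 12 had a promoter among those searched. Crem was not among these, so its promoter was not examined. Of the 14 promoters of those 12 genes, 3 held the CRE, namely those of Has1, Dusp1 and Btg2. Between 4-fold and 8-fold higher, 1 of 37 promoters did. Of the other motifs searched on both strands, the TATA box was present in 8.10% of promoters of measured genes, 7.23% of those of higher genes and 9.83% of those of lower genes. The interferon-stimulated response element, which is TTTC, any pair of bases and TTTC again, was present in 3.06%, 2.99% and 2.10%. The NF-kB consensus was present in 10.5%, 10.8% and 12.6% in the same order, and the CArG box of serum response factor in 1.29%, 1.12% and 1.70%. Shares of other motifs also moved in the small sets split by fold. The TATA box was in 3 of the 14 promoters of genes at least 8-fold higher, as many as held the CRE. It was in 11 of 48 for genes at least 4-fold lower (22.9%). Between 4-fold and 8-fold higher the core was in 17 of 37 promoters (45.9%) and the NF-kB consensus in 9 (24.3%).

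Of the 12572 measured genes, 816 were higher by 2-fold or more with LPS plus 8-Br-cAMP than with LPS (6.49%) and 730 were lower to that extent (5.81%). The other 11026 genes, 87.7%, lay within 2-fold. The median log2 difference was 0.05, and the middle 90% of genes lay between -1.05 and 1.09. Large differences were few: 62 genes passed 4-fold upward and 45 downward, 18 and 11 passed 8-fold, and 4 and 4 passed 16-fold. The share of higher among the genes past 2-fold was 52.8%, but 72.7% when arrays were scaled by their hybridisation spikes and 3.13% with the signals as deposited. The median of all genes moved to 0.21 and -0.65 under those scalings, so a difference near 0 has no fixed sign.

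Dim genes made up a large part of the counts. The higher genes held 230, or 28.2%, that were under the floor with LPS, and the lower genes 191, or 26.2%, that were under it with the analogue. Between mean signals of 32 and 64 the shares past 2-fold were 9.03% higher and 4.86% lower, and above 1024 they were 7.23% and 4.12%. Between 128 and 256 the order was the other way round, 5.44% and 7.43%. A second probe set above the floor had the same sign for 265 of 346 higher genes, but passed 2-fold for only 100 of them. For lower genes it had the same sign for 268 of 347 and passed 2-fold for 95. At 4-fold and above, 28 of 34 higher genes with a second probe set had the same sign by it and 21 passed 2-fold, against 18 of 19 and 8 among lower genes. Of the higher genes 17.9% were under the floor in unstimulated cells and of the lower genes 5.48%, against 16.9% of all measured genes.

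**Figure D3:**
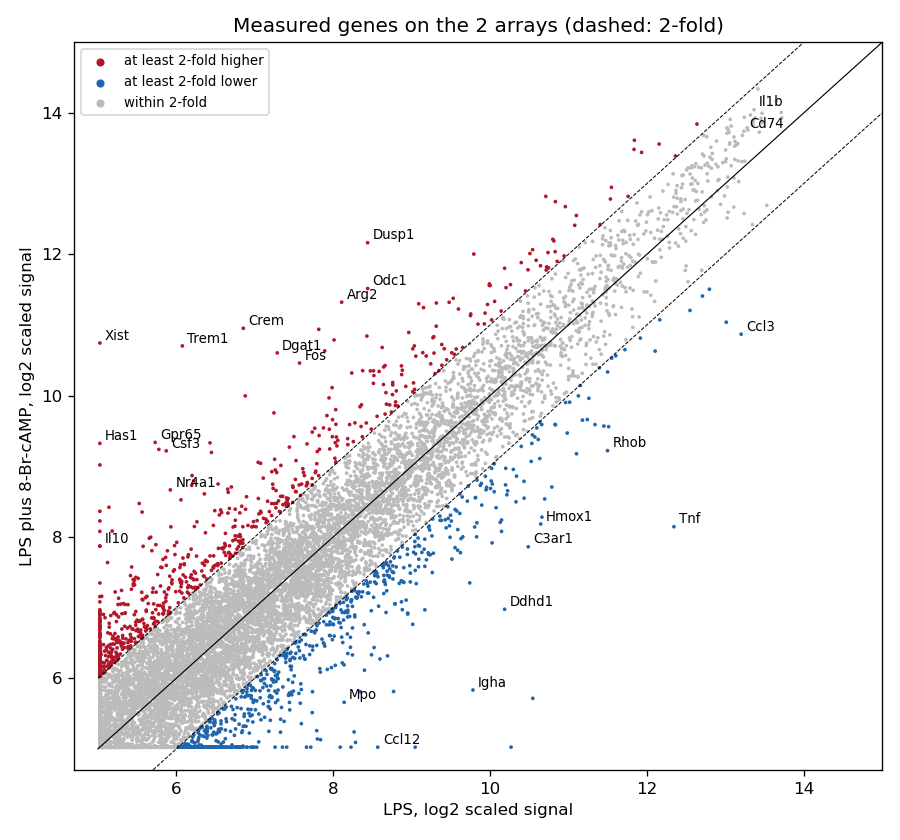
Log2 scaled signal of each measured gene with LPS (horizontal axis) and with LPS plus 8-Br-cAMP (vertical axis), with signals under the floor set to it. Red points are the 816 higher genes, blue points the 730 lower genes past 2-fold, and grey points the 11026 within 2-fold of the diagonal. Chosen genes are labelled, among them Il1b and Cd74, which lie within 2-fold.

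The 30 highest and 30 lowest genes were taken only from those whose other probe sets above the floor, if any, all had the same sign. For them the sign of a second probe set was thus fixed by the selection, and only its size is informative. The highest genes after Xist included cell surface receptors and a matrix enzyme. Trem1, a receptor that amplifies inflammatory signals in myeloid cells, read 34.1 unstimulated, 67.5 with LPS and 1668 with LPS plus 8-Br-cAMP, 24.7-fold higher than with LPS. Its second probe set was higher by 3.39. Has1, which makes the matrix polysaccharide hyaluronan, read 12.1, 11.7 and 641, and so stood under the floor on both other arrays. Ackr3, a scavenging receptor for Cxcl12, read 130, 23.2 and 519, at least 15.9-fold higher than with LPS. Gpr65, an acid-sensing receptor coupled to Gs, read 176, 53.1 and 647. For Ackr3 and Gpr65 the LPS array was the lowest of the 3.

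Others of the 30 highest genes encode regulators of transcription and signalling. Crem, which encodes CRE-binding activators and repressors, read 140 unstimulated, 116 with LPS and 1983 with the analogue, and its second probe set was higher by 3.55. Dusp1, a phosphatase that switches off MAP kinases, read 240, 347 and 4590. Dusp14, a phosphatase of the same class, read 14.0, 74.5 and 443. Fos, a subunit of the AP-1 transcription factor, read 353, 190 and 1410, and Nr4a1, an orphan nuclear receptor, read 47.3, 60.7 and 406. Btg2, an antiproliferative cofactor of mRNA deadenylation, read 428, 225 and 1963, with its second probe set higher by 1.78. In each of these genes the array with the analogue was the highest of the 3.

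The 30 highest genes also included secreted proteins and peptides. Csf3, the granulocyte growth factor, read 1.45 unstimulated, 58.5 with LPS and 596 with the analogue. Il10, an anti-inflammatory cytokine, read 7.99, 23.2 and 234, at least 7.20-fold higher. Il1f6, interleukin-36 alpha, read 32.5, 86.2 and 644, with a difference of 2.90. Penk, the precursor of the enkephalin peptides, read 28.0, 47.3 and 327. Nrg1, a ligand of ErbB receptors, read 4.74, 2.87 and 234, at least 7.18-fold higher. Ramp3, an accessory protein that fits the calcitonin receptor-like receptor to adrenomedullin, is not secreted and read 425, 258 and 1768.

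Enzymes of small-molecule and lipid metabolism stood among them too. Arg2, a mitochondrial arginase that makes ornithine, read 263 unstimulated, 276 with LPS and 2562 with the analogue, and its second probe set gave 2.73. Odc1, which turns ornithine into the polyamine putrescine, read 236, 347 and 2930, and its second probe set was higher by 2.12. Dgat1, which completes triglyceride synthesis, read 411, 156 and 1557, with 1.71 by the second probe set. Rdh11 and Rdh12, retinol dehydrogenases, were higher by 2.51 and 2.90, and by 2.95 and 1.57 by their second probe sets. Sptssb, a small subunit of serine palmitoyltransferase, was at least 9.20-fold higher. Its second probe set read 1.06 with LPS, under the floor, and 54.4 with the analogue, a log2 difference of at least 0.74.

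The rest of the 30 highest genes had various roles. Rhou, a small GTPase, read 63.2 unstimulated, 118 with LPS and 1022 with the analogue, and 2.68 was the log2 difference of its second probe set. Epha4, an ephrin receptor, was higher by 2.53, with 0.82 by the next brightest probe set. Mpp7, a scaffold protein of cell junctions, was higher by 2.67, with all 3 other probe sets past 2-fold. Med18, a subunit of the Mediator complex, was at least 10.1-fold higher. Mospd1, Mucl1 and Spink2 had differences of 2.75, 3.46 and at least 3.05.

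**Figure D4:**
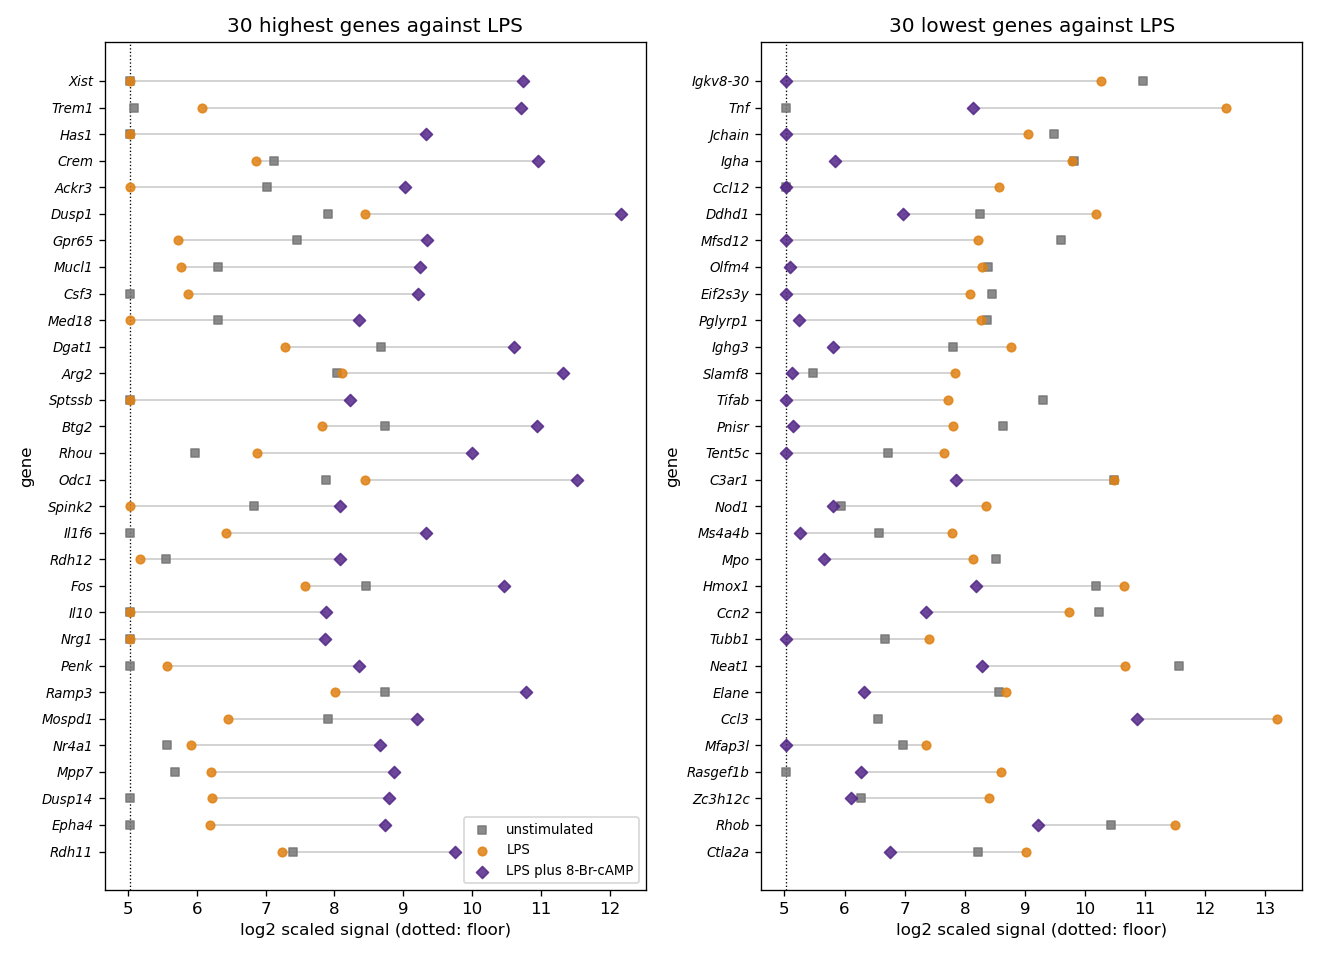
Log2 scaled signal (horizontal axis) of the 30 highest genes (left) and the 30 lowest genes (right) against LPS, on the unstimulated array (grey squares), the LPS array (orange circles) and the array with LPS plus 8-Br-cAMP (purple diamonds); the dotted line is the floor. Genes with another probe set of the opposite sign, and transcripts without a gene name, were passed over. Tnf and Ccl3 were far higher with LPS than unstimulated and lie between those values with the analogue, while Mpo and Elane have similar signals on the first pair of arrays and a lower one on the third.

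The 30 lowest genes included 3 inflammatory mediators that were high with LPS. Tnf, the cytokine that drives fever and vessel activation, read 13.0 unstimulated, 5206 with LPS and 283 with LPS plus 8-Br-cAMP, 18.4-fold lower than with LPS. Ccl3, a chemokine for monocytes, read 93.6, 9432 and 1872, and Ccl12, a ligand of Ccr2, read 11.4, 380 and 24.5. Each thus stood lower with the analogue than with LPS, and Tnf and Ccl3 still stood above the unstimulated array. The cytokines Il6 and Il12b did not pass 2-fold. Il6 read 31.2, 6004 and 9014 and Il12b, a subunit of interleukins 12 and 23, read 155, 1377 and 734. The difference of Il12b was -0.91, and -0.80 by its second probe set.

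Other genes among the 30 lowest were higher with LPS than unstimulated. Nod1, a cytosolic sensor of bacterial peptidoglycan, read 61.4 unstimulated, 326 with LPS and 56.0 with the analogue. Slamf8, a surface receptor of myeloid cells, read 44.4, 229 and 35.01. Zc3h12c, an RNase of the regnase family, read 77.3, 338 and 69.2. Its second probe set read 149 with LPS and 13.6, under the floor, with the analogue, so its difference of -2.19 is a bound. Rasgef1b, an exchange factor of the Ras superfamily, read 9.20, 387 and 77.3. For Nod1, Slamf8 and Zc3h12c the value with the analogue was close to that of unstimulated cells. Tifab, an inhibitor of Traf6 signalling, read 629, 210 and 26.9, so unlike the others it was lower with LPS and lower again with the analogue.

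Other low genes were already well above the floor in unstimulated cells. C3ar1, the receptor of the complement peptide C3a, read 1434 unstimulated, 1436 with LPS and 232 with the analogue, with both other probe sets past 2-fold. Hmox1, the haem-degrading enzyme, read 1158, 1603 and 291. Rhob, a small GTPase of endosomes, read 1389, 2895 and 597. Ccn2, a matricellular protein made mostly by mesenchymal cells, read 1198, 856 and 163. Ddhd1, a phospholipase A1, read 305, 1165 and 126, and all 3 of its other probe sets were past 2-fold in the same direction. Neat1, the RNA that builds paraspeckles, read 3030, 1621 and 311, but its second probe set differed by -0.51. Pnisr, a splicing-related protein, was lower by 2.66 in size and had a second probe set at -0.64. The rest of the 30 lowest genes included Tubb1, a tubulin of platelets, Olfm4 and Pglyrp1, both of neutrophil granules, and the antibody genes Igkv8-30 and Ighg3. The second probe set of Ighg3 read 33.5 with LPS, just above the floor, and 29.3 with the analogue, under it. Its difference of -0.04 is therefore set by the floor. The 30 lowest genes are those whose other probe sets all had the same sign. Ighm, the heavy chain of IgM, read 1495 with LPS and 52.5 with the analogue. It was passed over because only 7 of its 8 other probe sets had the same sign.

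Genes of cyclic AMP signalling itself mostly lay within 2-fold, apart from some that end the signal. Of 27 measured effectors and breakdown enzymes, 4 were at least 2-fold higher (14.8%) and 0 lower, against 6.49% and 5.81% of all measured genes. The list's median was 0.14 against 0.05 for all genes. All 4 were phosphodiesterases, which break cyclic nucleotides down. Pde4b read 345 unstimulated, 921 with LPS and 2066 with the analogue, and its second probe set was higher by 2.00. Pde8a was higher by 1.21, Pde4d by 1.04 and Pde7b by 1.38, the last by only 0.19 by its second probe set. Pde4d read 69.3 unstimulated, 33.1 with LPS, just above the floor, and 68.0 with the analogue. Pde7b read 126, 59.9 and 155, so for both the LPS array was the lowest. Prkar1a, a regulatory subunit of protein kinase A, read 1241 with LPS and 1511 with the analogue. Of 15 genes of the CREB family, its coactivators and the SIK kinases that restrain them, 3 were higher (20%) and 1 lower (6.67%). Beside Crem the higher genes were Sik1, at least 2.57-fold, and the coactivator Crtc3, by 1.38, while the coactivator Crtc1 was at least 2.10-fold lower (-0.64 by the second probe set). Creb1 differed by -0.67, and by 0.05 by its second probe set.

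CREB target genes had the largest share of higher members among the 28 pathway lists. The lists were chosen with earlier results of these data known, so this rank is not independent evidence. Of 32 measured, 17 were at least 2-fold higher (53.1%) and 2 lower (6.25%), against 6.49% and 5.81% of all measured genes, and the median was 1.04. The 17 included Crem, Dusp1, Btg2, Odc1, Fos, Il10 and Nr4a1. Nfil3, a basic leucine zipper factor, was also among them at 400 against 1357. Within the Nr4a family the members differed: Nr4a1 was higher by 2.74, Nr4a3 differed by 0.83, and Nr4a2 read 197 against 79.8, a difference of -1.30 that was -0.16 by its second probe set. Thbs1, a matricellular protein, differed by 0.71 by both of its brightest probe sets. CREB targets were the only pathway list whose median was above 0 in the main processing and in all alternatives tried, from 0.27 with the signals as deposited to 1.18 under spike scaling.

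**Figure D5:**
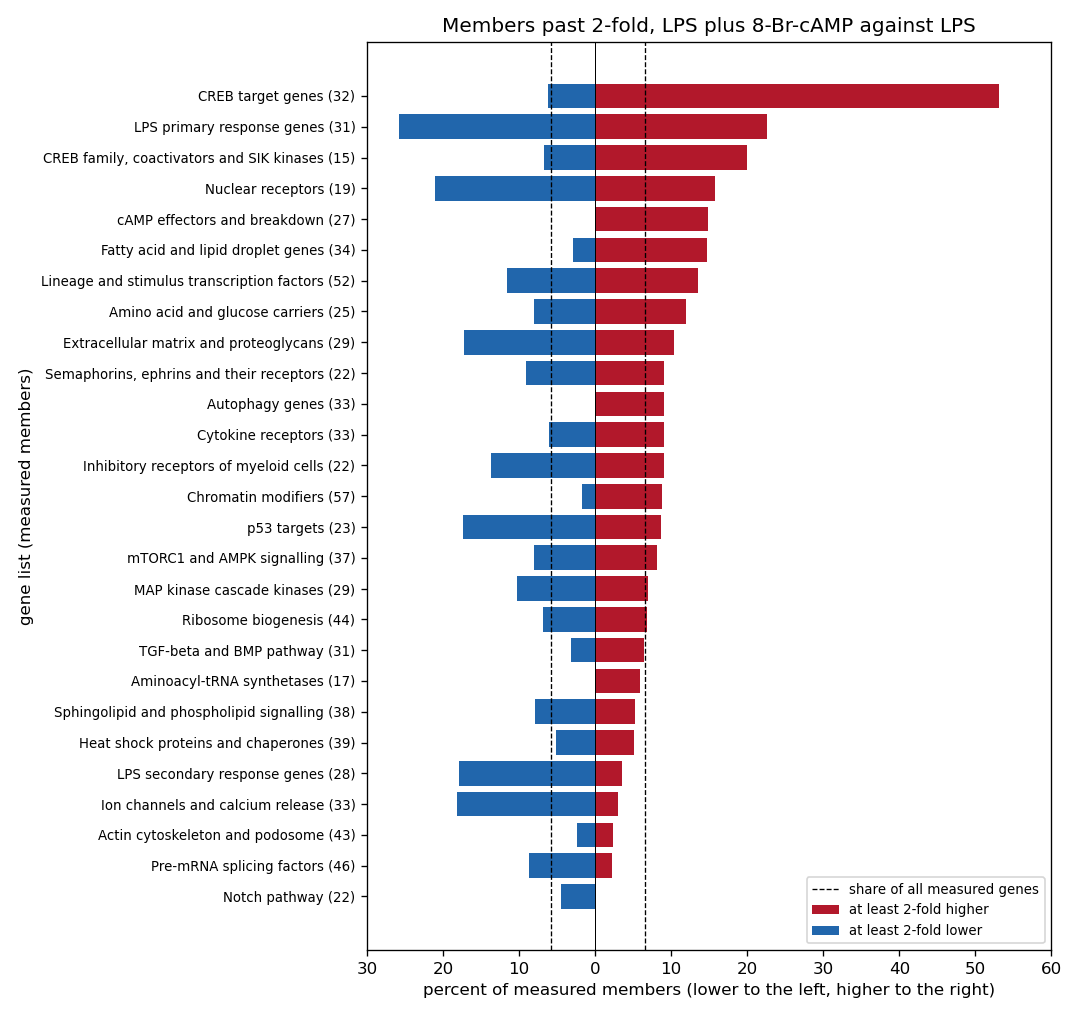
Percent of the measured members of each pathway list shown (vertical axis, number measured in brackets) that were at least 2-fold higher (red, to the right) or at least 2-fold lower (blue, to the left) with LPS plus 8-Br-cAMP than with LPS. Dashed lines are the shares over all measured genes, 6.49% and 5.81%. CREB targets had 53.1% higher, the largest share among the lists shown, which were chosen with earlier results known.

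Primary response genes of LPS, which need no new protein, split in both directions. Of 31 measured, 7 were higher (22.6%) and 8 lower (25.8%), against 6.49% and 5.81% of all measured genes, with a median of 0.28 that was -0.53 with the signals as deposited. Tnf and Ccl3 were the lowest and Dusp1, Btg2 and Fos the highest. Il1b, the interleukin 1 beta gene, read 10572 against 16929 and Nfkbia, the inhibitor of NF-kB, read 8479 against 13557, so neither was lower past 2-fold as Tnf was. Secondary response genes, which depend on newly made factors, had 1 of 28 higher (3.57%) and 5 lower (17.9%), with a median of -0.23. The lower ones included the interferon-induced genes Ifit3, at 2803 against 760, Cxcl9, a chemokine for T cells, at 805 against 256, and Iigp1, a GTPase, at 838 against 364 (-0.52 by its second probe set). Rsad2, an antiviral enzyme, read 11245 against 15528, but both other probe sets had the opposite sign, the second at -0.06. Saa3, an acute phase protein, read 8637 against 14418. Csf3 was the higher member.

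Of 33 cytokine receptors and related genes, 3 were higher (9.09%) and 2 lower (6.06%), against 6.49% and 5.81% of all measured genes. Il4ra, the receptor chain of interleukins 4 and 13, read 365 with LPS and 1156 with the analogue, with its second probe set higher by 1.12. Il1r2, a decoy receptor of interleukin 1, read 775 against 2395, and Ifngr1, the interferon gamma receptor, 196 against 500. Il10ra, the receptor of Il10, was lower, at 401 against 165. Il17ra, the receptor of interleukin 17, was lower too, at 346 against 161. Inhibitory receptors had 2 of 22 higher and 3 lower (13.6%). Among them Cd300lf was lower by 1.83 in size and Cd200r1, the receptor of CD200, by 1.27 (-0.99 by the second probe set), while Pdcd1lg2, a ligand of PD-1, was higher by 1.05. Kinases of the MAP kinase cascades had 2 of 29 higher (6.90%) and 3 lower (10.3%). Mapkapk2, which stabilises Tnf mRNA downstream of p38, read 1998 against 957. Mapkapk3, its close relative, read 118 against 336, with the second probe set higher by 1.09. Mapk14, the p38 alpha kinase, read 579 against 603, and its 3 other probe sets had the opposite sign.

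The family of G protein-coupled receptors was formed by the symbol stems Gpr and Adgr alone, so not every member need be such a receptor. It had 11 of 45 measured members higher and 2 lower. These were shares of 24.4% and 4.44%, against 6.49% and 5.81% of all measured genes. The family's median of 0.13 was close to that of all genes. Beside Gpr65, Adgre4, an adhesion receptor of myeloid cells, read 79.9 unstimulated, 60.97 with LPS and 283 with the analogue, and its second probe set was higher by 1.61. Gpr155, a lysosomal cholesterol sensor, read 93.4, 43.8 and 163. The lower members were Gpr137, which was under the floor with the analogue, and Gpr89. The count of higher members ran from 3 to 25 over the alternatives tried.

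Ion channel and calcium release genes had 6 of 33 lower (18.2%) and 1 higher (3.03%), against 5.81% and 6.49% of all measured genes. Trpm7, a channel fused to a kinase, read 304 with LPS and 105 with the analogue, and its second probe set differed by -1.16. Clcn3 and Clcn7, chloride transporters of endosomes and lysosomes, differed by -1.35 and -1.41, and by -1.99 and -0.68 by second probe sets. Stim1, the calcium sensor of the endoplasmic reticulum, was at least 2.51-fold lower. The median of the list was -0.21 and stayed below 0 in all alternatives tried. Clic4 and Clic1, the brightest members, differed by -0.04 (0.11 by the second probe set) and 0.26.

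Genes of fatty acids and lipid droplets had 5 of 34 higher (14.7%) and 1 lower (2.94%), against 6.49% and 5.81% of all measured genes. After Dgat1, Hilpda, a lipid droplet protein that inhibits lipolysis, read 456 unstimulated, 637 with LPS and 2541 with the analogue. G0s2, another inhibitor of the lipase Atgl, read 65.2, 44.3 and 160, and Mgll, monoglyceride lipase, was higher by 1.18 but differed by -0.27 with the probe sets restricted to those ending in _at. Fabp4, a fatty acid carrier, was lower at 793 against 252, with -2.08 by the second probe set. Fabp5, its brighter relative, read 7867 against 6687. Outside this list, Slc25a20, the carnitine carrier of mitochondria, read 82.0 against 391 (0.71 by the second probe set), and Abca1, which exports cholesterol, read 1994 against 6543 with both other probe sets past 2-fold.

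Matrix, guidance and morphogen genes were mixed. Among 29 matrix and proteoglycan genes, 3 were higher (10.3%) and 5 lower (17.2%), against 6.49% and 5.81% of all measured genes. Sdc1, a heparan sulphate proteoglycan, read 1598 unstimulated, 1540 with LPS and 3864 with the analogue, with all 3 other probe sets past 2-fold. Postn, a matrix protein of fibroblasts that is also on the stromal marker list, read 984, 1044 and 241, and Col1a1, a collagen chain, read 1375, 994 and 416. The second probe set of Col1a1 differed by -0.07, and its mean over probe sets, -0.66, did not pass 2-fold. Stromal markers had 3 of 10 higher and 3 lower, with summed signals of 6748 and 5422, and the part of stromal cells was not tested. Fst, an inhibitor of activins, read 25.1, 101 and 409, and its second probe set was higher by 2.34. Nrp2, a semaphorin receptor, read 2027 with LPS and 710 with the analogue, with all 3 other probe sets past 2-fold. Adam17, the protease that sheds Tnf from the cell surface, read 1474 against 537, with -1.06 by its second probe set. Actin and podosome genes had 1 of 43 higher and 1 lower.

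Transcription factors of lineage and stimulus had 7 of 52 higher (13.5%) and 6 lower (11.5%), against 6.49% and 5.81% of all measured genes. Bhlhe40, a repressor of the clock family, read 1200 unstimulated, 1025 with LPS and 3016 with the analogue, and Ets2 read 221, 618 and 1808. Klf6, a zinc finger factor, read 782, 1384 and 374, and its second probe set differed by -1.91. Cebpa, a factor of granulocyte and monocyte development, read 530, 115 and 32.9. Irf8, a factor of monocyte and dendritic cell development that also stands on the plasmacytoid dendritic cell list, read 1479, 2455 and 998, with -1.15 by its second probe set. Cebpb and Hif1a, the brightest members under 2-fold, differed by 0.23 (-0.28 by the second probe set) and 0.53. Among nuclear receptors 3 of 19 were higher (15.8%) and 4 lower (21.1%). Vdr, the vitamin D receptor, was higher by 1.75, with 1.71 by the second probe set, and the clock gene Nr1d2 was lower at 161 against 42.8.

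Genes of RNA and protein synthesis differed by small amounts. Of 46 measured cytosolic ribosomal proteins, 43 had a positive difference, 3 were at least 2-fold higher (6.52%, against 6.49% of all measured genes) and 0 lower. The median of 0.51 was -0.31 with the signals as deposited. It lay 0.46 above that of all measured genes, but as little as 0.09 above it in an alternative. All measured genes with a mean signal above 1024 had a median of 0.18. Rpl41 read 6382 with LPS and 14708 with the analogue, with both other probe sets of the same sign, and Rps29, among the brightest, 11066 against 13580. Pre-mRNA splicing factors had 29 of 46 members with negative differences and a median of -0.30, and 4 were at least 2-fold lower (8.70%, against 5.81% of all measured genes). Hnrnpa2b1, a binder of nascent RNA, read 1039 against 502, with -0.92 by its second probe set. Rbm39, the 1 higher member, had 3 of 11 other probe sets with the same sign and differed by -2.16 with the signals as deposited. Aminoacyl-tRNA synthetases had 1 of 17 higher, Wars, the tryptophan enzyme, at 155 against 356 (0.84 by its second probe set). Ribosome biogenesis genes had 3 of 44 higher and 3 lower, shares near the background.

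Further lists and families are read against the shares of all measured genes, 6.49% higher and 5.81% lower. Chemokines were above both, with 4 of 26 higher (15.4%) and 7 lower (26.9%), and Cxcl5, a neutrophil attractant, read 14.6 unstimulated, 75.04 with LPS and 284 with the analogue. Interleukins and their receptors had 8 of 51 higher (15.7%) and 4 lower (7.84%). Il33, an alarmin, was at least 3.85-fold higher. Stress-linked p53 targets had 2 of 23 higher (8.70%) and 4 lower (17.4%), with Ddit4, an inhibitor of mTORC1, at 714 against 2559 and the death receptor Fas at 442 against 133. Heat shock proteins and chaperones had 2 of 39 higher and 2 lower, such as Dnajb4 at 193 against 41.0, with 1 of 2 other probe sets of the same sign. Autophagy genes had 3 of 33 higher and 0 lower. Solute carriers had 20 of 240 higher (8.33%) and 9 lower (3.75%), zinc finger proteins named Zfp 19 of 222 higher and 14 lower, and Rab GTPases 1 of 62 higher and 3 lower. V-ATPase subunits had 0 of 17 past 2-fold in either direction.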

How the data were processed

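The data were 3 single-colour arrays of mouse bone marrow-derived dendritic cells, 1 per condition. The values the authors deposited are linear intensities, 1 per probe set. Per the submitters' processing notes they come from MAS5. The sources used here do not give its version or settings. Of 45101 probe sets, 64 were controls. GEO's platform annotation gave 1 gene for 34945, of which 99.4% had an identifier in the RefSeq table, several genes for 932, and none for 9160.

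Each array was scaled to a common mean trimmed by 2% at each end, with factors of 0.763, 0.929 and 1.63 for unstimulated, LPS and LPS plus 8-Br-cAMP. Signals under the highest array median, 32.5 (log2 5.02), were set to it. The brightest probe set over the 3 arrays stood for a gene, and differences were log2 differences, called at 2-fold. The other probe sets of a gene served as the only repeat measurement, but for the 30 highest and 30 lowest genes their sign was fixed by the selection. With 1 array per group no test, standard error or p-value was computed, and precision is limited by the number of arrays.

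The comparison, the gene lists and the families by symbol stem were chosen with earlier results of these data known, so no count over a list is independent evidence. Named were the 30 highest and 30 lowest genes whose other probe sets had the same sign, per list or family up to 5 genes past 2-fold and the 2 brightest under it, and Tnf, Il6, Il12b, Il10, Fos, Crem and Xist. A pathway list is not reported here. Motifs were searched on both strands of RefSeq promoters (GRCm38.p6). Alternatives were other scalings, floors, thresholds and probe set rules. The scaling, the floor and the choice of 1 probe set per gene were tested on simulated data with planted differences. The motif search, the lists and the alternatives were not. Python 3.11.15, numpy 2.4.6, pandas 2.3.3, scipy 1.17.1, statsmodels 0.14.6 and matplotlib 3.10.9 were used.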

Additional observations from a re-analysis of the deposited data

Results flagged for a closer look

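Probe sets that the annotation does not name were outside every count above. Of 3615 measured, 157 were at least 2-fold higher with LPS plus 8-Br-cAMP than with LPS (4.34%) and 292 lower (8.08%). The probe set 1420097_at read 19.0 unstimulated, 21.8 with LPS and 285 with the analogue, a log2 difference of at least 3.13. The probe set 1424922_a_at read 11.9, 33.9 and 216, a log2 difference of 2.67. Both stood higher than on the arrays without the analogue, and neither has a replicate check. They were the highest of the unnamed probe sets, but the largest difference was downward. The probe set 1424631_a_at read 1254, 568 and 14.4, at least 17.5-fold lower than with LPS.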

How the results depend on the processing

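The counts of genes past 2-fold depended mainly on the floor, the threshold and how the dim array was brought to the others. A floor at the 25th percentile gave 2326 higher and 1873 lower genes, and one at the 75th percentile 302 and 304. A threshold of 1.5-fold gave 2271 and 1988, and one of 3-fold 182 and 154. Spike scaling gave 1041 higher and 391 lower genes with a median of 0.21 over all genes. The signals as deposited, which keep the dimness of the array with 8-Br-cAMP, gave 93 higher and 2882 lower with a median of -0.65. Cyclic loess, quantile normalization and median scaling retained 90.6% to 97.2% of the 816 higher genes and 90.1% to 100% of the 730 lower genes, and spike scaling 85.2% and 53.4%.

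A group of 127 genes named by rule or in the text was past 2-fold, Ighm not counted. Of these, 112 had a value in all 11 settings and the rest in 9 or 10. In those, 125 of the 127 kept their sign, and 94 stayed past 2-fold under each of the 6 scalings that gave them a value. Mgll turned to -0.27 with only probe sets ending in _at. Rbm39 turned to -2.16 with the signals as deposited and to -0.37 by the mean over probe sets. The cause was not tested. Neutrophil markers had medians from -1.94 to -0.96 over all settings. Signal near the floor limits the dim genes, whose folds are bounds. No paired analysis was possible because each group has 1 array.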
